A study of Mus musculus with 8 samples.

Results

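The nuclear-encoded subunit genes of the mitochondrial respiratory chain and ATP synthase were examined in sorted mouse myeloid cells. The genes were taken by symbol: those beginning with Ndufa, Ndufb, Ndufc, Ndufs or Ndufv, Sdha to Sdhd, Uqcr, Cox4i, Cox5 to Cox8, or Atp5, leaving out Ndufaf. Only probe sets annotated to a single gene were used, and a gene was read from whichever of its probe sets had the highest mean. This gave 86 of the 18194 genes that had a probe set of their own on the array. Of the 86 genes, 34 belong to complex I, 4 to complex II, 8 to complex III, 17 to complex IV and 17 to complex V. The other 6 were caught by the prefixes but are not subunits: Sdhaf1, Sdhaf2, Sdhaf3 and Sdhaf4 (assembly factors of complex II), Cox7a2l (a factor that joins complexes III and IV) and Ndufa4l2 (a relative of Ndufa4). They are described apart from the 80 subunit genes.

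The respiratory chain passes electrons from NADH, through complex I, and from succinate, through complex II, to ubiquinone, then through complex III and cytochrome c to complex IV, which reduces oxygen. Complexes I, III and IV pump protons across the inner membrane, and complex V, the ATP synthase, uses their return to make ATP. Neutrophils are known to draw most of their ATP from glycolysis and to keep few mitochondria, whereas their dividing precursors, macrophages and colon epithelial cells use oxidative phosphorylation more.

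The study compared C57BL/6J mice with and without histidine decarboxylase (HDC), the enzyme that makes histamine, in myeloid cells sorted on CD11b and Gr-1. Bone marrow cells that also expressed HDC came from 3 HDC-EGFP mice (called wild-type) and 3 HDC-EGFP/HDC-KO mice aged 3 to 4 months, with no treatment named. Tumor cells came from 5 mice of each genotype at 7 months of age, which had received azoxymethane once and then dextran sodium sulfate for 10 days to induce colon tumors, collected 22 to 24 weeks later. Cells of 10 to 12 tumors were pooled. Each of the 4 groups was represented by 2 technical arrays and was treated as 1 pool. The labels do not say whether the bone marrow RNA of the 3 mice was pooled. The p-values measure the difference between pools against the spread of repeated arrays, not of mice. All 4 groups carried the HDC-EGFP transgene according to the sample labels, although the study's design text calls the tumor mice WT and HDC-KO. Selection for HDC expression is named for bone marrow and not for tumor, and age and carcinogen treatment go with tissue, so these cannot be told apart from the tissue.

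The 2 arrays of a pool correlated at r = 0.9955 to 0.9981 over the tested genes, and 30.4% to 31.7% of probe sets lay at or above log2 5. Hdc, the deleted gene, read 13.14 and 13.21 in wild-type bone marrow and 9.79 and 9.87 in HDC-KO bone marrow. It read 13.25 and 13.23 in wild-type tumor and 13.02 and 13.03 in the tumor pool labelled HDC-KO, which therefore did not show the loss its label states. Every direction drawn from that pool is given for the pool labelled HDC-KO tumor. All 7 markers measured for the sort and for granulocytes, Itgam (CD11b) among them, were at or above log2 5 in every pool. On the linear scale they summed to 115707 to 117151 in wild-type and 116855 to 118943 in HDC-KO bone marrow. The sums were 108645 to 110699 in wild-type tumor and 99602 to 100627 in the pool labelled HDC-KO tumor. The genes of the Gr-1 antigens were not analysed here. The 12 epithelial markers, among them Epcam and Krt8, were all at or above log2 5 in both tumor pools, against 1 of 12 (Lgals4) in each bone marrow pool. Their summed level on the linear scale was 227 to 271 in wild-type and 231 to 250 in HDC-KO bone marrow, 7270 to 7454 in wild-type tumor and 35114 to 36972 in the pool labelled HDC-KO tumor. The 9 macrophage markers summed to 2483 to 2579, 3135 to 3141, 13767 to 14213 and 28782 to 30413 in the same order. The 7 primary granule genes of granulocyte precursors summed to 30880 to 31664, 25119 to 25333, 7510 to 7588 and 840 to 904, with Ctsg and Elane under log2 5 in the last pool. The 13 cell cycle genes summed to 33913 to 33984, 33272 to 33371, 27218 to 27656 and 6915 to 7332. The 7 fibroblast and endothelial markers were under log2 5 in every pool. In pooled RNA, fewer cells of a type and less RNA per cell cannot be told apart.

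Values were the authors' log2 expression values, and a gene was tested if 2 or more arrays reached log2 5, which 8174 genes did. Of the 86 genes, 74 were tested, 70 of them subunits: 32 of complex I, 4 of complex II, 8 of complex III, 9 of complex IV and 17 of complex V. For 67 subunit genes all 4 pool means were at or above log2 9. A probe set's value depends on its probes, so no gene's level is set against another gene's. The log2 difference between the highest and the lowest of the 4 pool means had a median of 0.34 over the 70 subunits, and its largest value was 1.21. Over all 8174 tested genes the median was 0.86, and over the 4116 genes reaching log2 9 on 2 or more arrays it was 0.69. A difference under 0.5 was found for 71.4% of the subunits, 28.6% of all tested genes and 36.2% of the genes at or above log2 9. A difference of 1 or more was found for 4.29%, 43.6% and 35.5%. The median SD between the 2 arrays of a pool was 0.049 for the subunits and 0.090 for all tested genes.

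**Figure D1:**
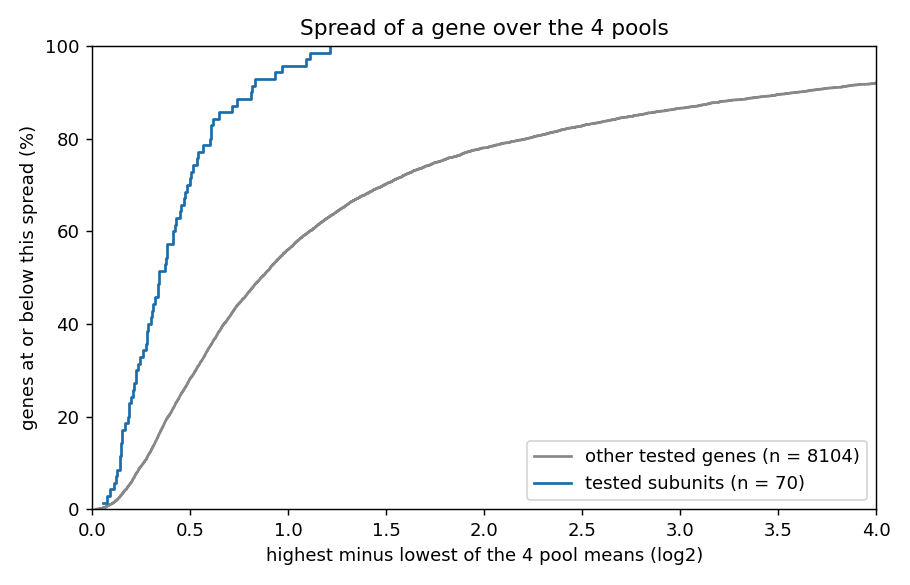
Cumulative share of genes (percent, y axis) with a given log2 difference between the highest and the lowest of the 4 pool means (x axis), for the 70 tested subunit genes (blue) and the other 8104 tested genes (grey). The blue line reaches 100% at 1.21, and 8.02% of the other genes lie beyond the end of the axis at 4.

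The subunits were not all highest in the same pool. Of the 70, 36 were highest in the pool labelled HDC-KO tumor, 24 in wild-type bone marrow, 6 in wild-type tumor and 4 in HDC-KO bone marrow. The lowest value lay in HDC-KO bone marrow for 34, in the pool labelled HDC-KO tumor for 20, in wild-type tumor for 10 and in wild-type bone marrow for 6. Over all tested genes, 40.9% were highest and 40.6% lowest in the pool labelled HDC-KO tumor, 23% and 20.7% in HDC-KO bone marrow, 24.5% and 21.6% in wild-type bone marrow, and 11.5% and 17.1% in wild-type tumor.

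**Figure D2:**
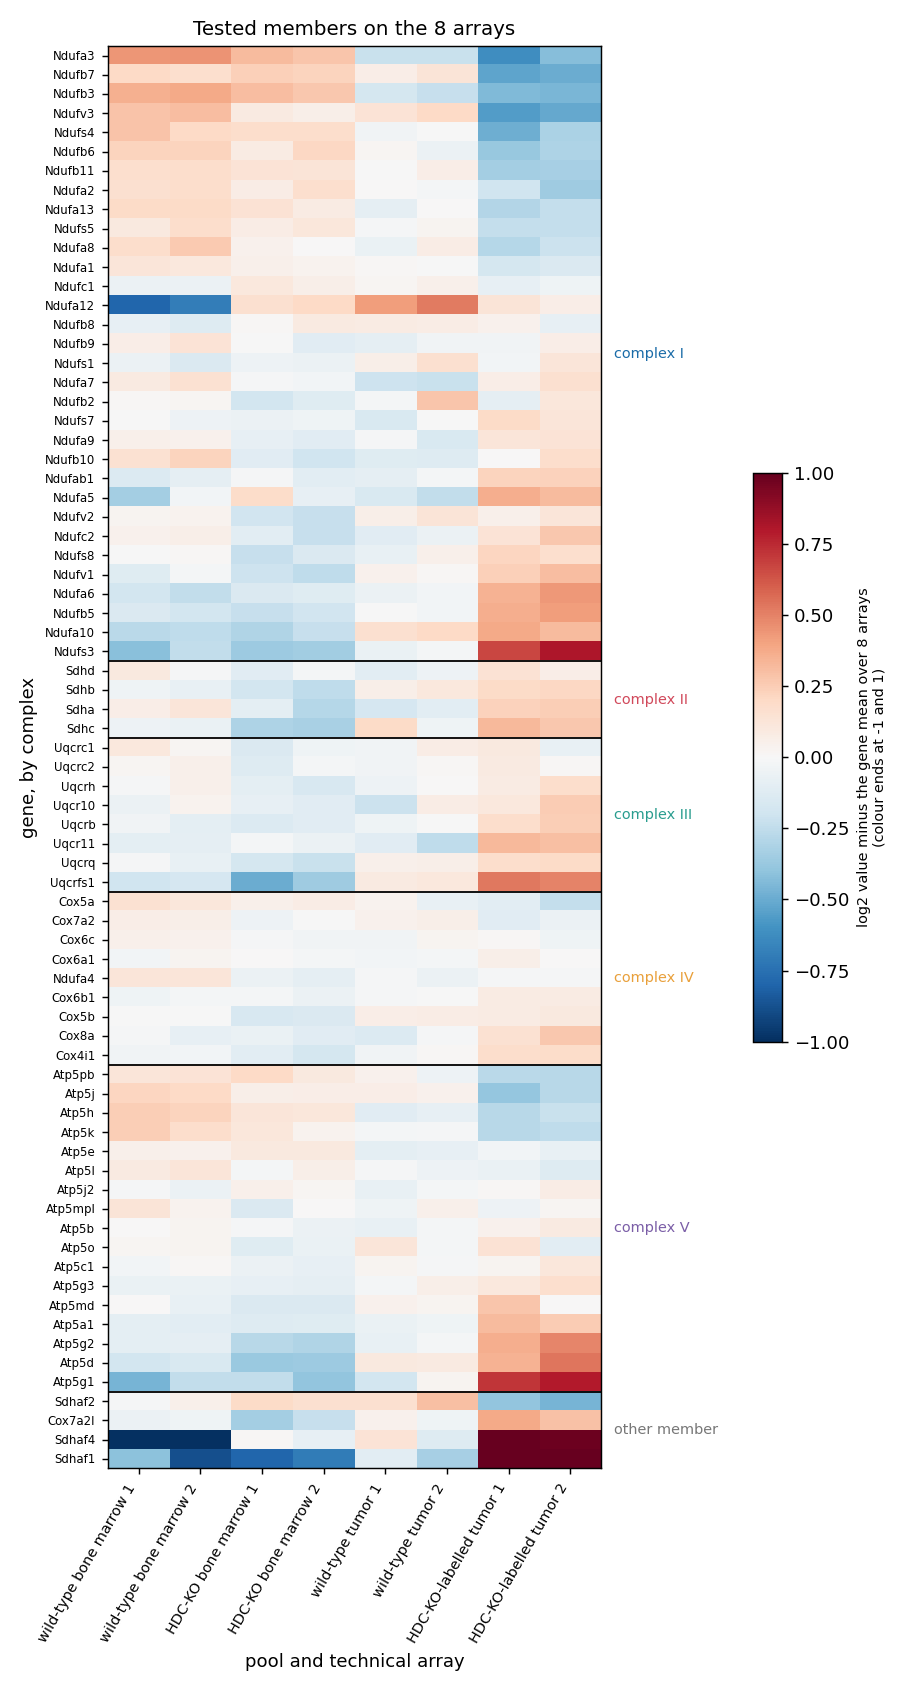
Log2 value of each of the 74 tested genes on each of the 8 technical arrays, minus the gene's mean over the arrays (colour, ending at -1 and 1), with genes grouped by complex and ordered by the difference between the pool labelled HDC-KO tumor and HDC-KO bone marrow. The last 2 columns hold both the lowest values of complex I genes such as Ndufa3 and Ndufb7 and the highest values of Ndufs3, Uqcrfs1 and Atp5g1.

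Many respiratory chain genes are known targets of the transcription factors NRF1, GABP (which binds an ETS motif) and YY1, so their promoters were searched for these motifs. RefSeq windows of 300 bases (250 before and 50 after the start site, GRCm38.p6) were found for 59 of the 70 tested subunits, 64 windows in all. The ETS core CCGGAAG, on either strand, lay in 26.6% of the subunit windows, 8.86% of all 32851 windows in the table and 19.2% of the windows of tested genes. The NRF1 core GCGCANGCG lay in 28.1%, 6.25% and 14%, and the YY1 core AAGATGGC in 14.1%, 2.75% and 4.68%. At least 1 of these 3 cores lay in 57.8% of subunit windows (37 of 64), 16% of all windows and 32.9% of those of tested genes. For the other motifs searched, the GC box GGGCGG lay in 40.6%, 35.7% and 62.7%, CCAAT in 39.1%, 37.4% and 37.3%, and TATAAA in 10.9%, 13.6% and 7.61%. These are matches of letters on either strand, not measured binding.

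Promoters of 3 genes are printed because the genes moved in different directions in the data while holding such motifs. They are Ndufs3, with the largest increase of any subunit from HDC-KO bone marrow to the pool labelled HDC-KO tumor, Sdha, the flavoprotein of complex II, and Ndufb7, which fell. Each line gives the 250 bases before the start site, 5′ to 3′ in the direction of the gene, with ETS and NRF1 cores in capitals.
Ndufs3, chr2:90904722-90904971, minus strand: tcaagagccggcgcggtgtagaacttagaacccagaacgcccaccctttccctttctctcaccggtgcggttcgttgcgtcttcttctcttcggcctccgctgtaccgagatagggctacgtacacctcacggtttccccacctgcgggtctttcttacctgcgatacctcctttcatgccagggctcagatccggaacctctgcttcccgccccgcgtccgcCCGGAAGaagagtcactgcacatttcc
Sdha, chr13:74350241-74350490, minus strand: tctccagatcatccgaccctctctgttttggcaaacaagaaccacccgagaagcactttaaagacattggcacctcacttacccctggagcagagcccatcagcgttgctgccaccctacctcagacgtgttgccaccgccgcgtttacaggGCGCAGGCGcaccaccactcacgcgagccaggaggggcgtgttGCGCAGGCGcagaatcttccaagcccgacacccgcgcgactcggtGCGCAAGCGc
Ndufb7, chr8:83566508-83566757, plus strand: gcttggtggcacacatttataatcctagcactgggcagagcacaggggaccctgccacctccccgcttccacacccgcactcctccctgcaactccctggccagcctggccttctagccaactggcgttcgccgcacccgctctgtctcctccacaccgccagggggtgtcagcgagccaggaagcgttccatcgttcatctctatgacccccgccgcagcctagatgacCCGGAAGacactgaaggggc
Counted from the start site, with negative positions before it, the ETS core began at -27 in Ndufs3, where it shared bases with a GC box on the other strand, and at -20 in Ndufb7. Sdha held 3 NRF1 cores, beginning at -98, -55 and -10. A further ETS core of Ndufs3 begins past the printed bases.

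The comparison of HDC-KO with wild-type bone marrow asks what loss of HDC does to these transcripts in marrow myeloid cells. Of the 70 tested subunits, 1 rose and 6 fell at an adjusted p under 0.05 (limma, Benjamini-Hochberg), and 63 did not pass. Among all tested genes 21.2% passed, 10.3% higher and 10.9% lower. On the probe sets used, no subunit was called at 2-fold or more, against 3.82% of all tested genes. Of the 86 genes only the assembly factor Sdhaf4 was called so. Uqcr10 gave -0.09 on the probe set used, and -1.77 and -2.97 on its other detected probe sets. Those read 5.93 and 5.48, and 5.65 and 5.58, in wild-type bone marrow and lay under log2 5 in every other pool. The sizes of these decreases were therefore not measured. The median log2 difference of the 70 subunits was -0.08, against -0.0014 over all tested genes, and 57 of the 70 differences were negative. By complex the median was -0.07 for complex I, -0.21 for complex II, -0.13 for complex III, -0.07 for complex IV and -0.09 for complex V. Markers of other cells differed between these pools too. The 6 B and T cell markers summed to 263 to 318 in wild-type and 5842 to 5944 in HDC-KO bone marrow, with Cd3e, Cd3g and Cd79a under log2 5 in both. The 4 of them tested had a median log2 difference of 1.12 and a highest of 4.85, so the sums do not give the change of each marker. The 7 muscle and fat markers summed to 970 to 995 and 2268 to 2310, with 6 of 7 under log2 5 in both. The 4 erythroid markers summed to 59 to 62 and 25 to 34, with 3 of 4 under log2 5 in wild-type and all 4 in HDC-KO bone marrow. Of the 9 macrophage markers 4 were called 2-fold, 3 higher and 1 lower, and 4 of the 7 primary granule genes fell. Their part in the result was not tested.

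The gene that rose was Ndufa12, an accessory subunit of complex I. It read 10.12 and 10.22 in wild-type and 11.08 and 11.11 in HDC-KO bone marrow, 11.34 and 11.43 in wild-type tumor, and 11.05 and 10.98 in the pool labelled HDC-KO tumor. The 2 wild-type bone marrow arrays were the lowest of the 8, and no 2 pools overlapped. The log2 difference in bone marrow was 0.92 ± 0.06 (SE, adjusted p = 0.0003, limma). The probe set used is of the kind the maker marks as able to match other transcripts. Of the gene's other detected probe sets, the 2 that are so marked gave 0.67 and 1.18. The unmarked one read 4.54 and 4.47 against 4.57 and 4.43, below log2 5 in both marrow pools, and gave -0.0030, so the increase in bone marrow rests on the marked probe sets.

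The 6 that fell were Ndufb10 (-0.34 ± 0.07), Sdha (-0.28 ± 0.07), Ndufv2 (-0.24 ± 0.05), Uqcrfs1 (-0.24 ± 0.06), Ndufv3 (-0.22 ± 0.05) and Ndufa4 (-0.20 ± 0.05), with adjusted p between 0.023 and 0.042 (limma). They lie in complexes I to IV, and none is of complex V. Ndufb10, an accessory subunit of the membrane arm of complex I, read 10.87 and 10.94 in wild-type and 10.61 and 10.52 in HDC-KO bone marrow. Sdha, which binds FAD and oxidises succinate, read 10.02 and 10.08 against 9.86 and 9.68. Uqcrfs1, the Rieske iron-sulfur protein of complex III, read 10.03 and 10.06 against 9.73 and 9.88. The pools did not overlap for any of the 3. The catalytic subunits Ndufs1, Atp5a1 and Atp5b differed by 0.05, -0.02 and -0.05 and did not pass. Leaving out any of the 4 bone marrow arrays gave 2 or 3 of the 74 tested genes at an adjusted p under 0.05, against 9 with all arrays. A trended, robust variance model gave 27, and a filter at log2 9, chosen after seeing the data, gave 19 of 70.

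**Figure D3:**
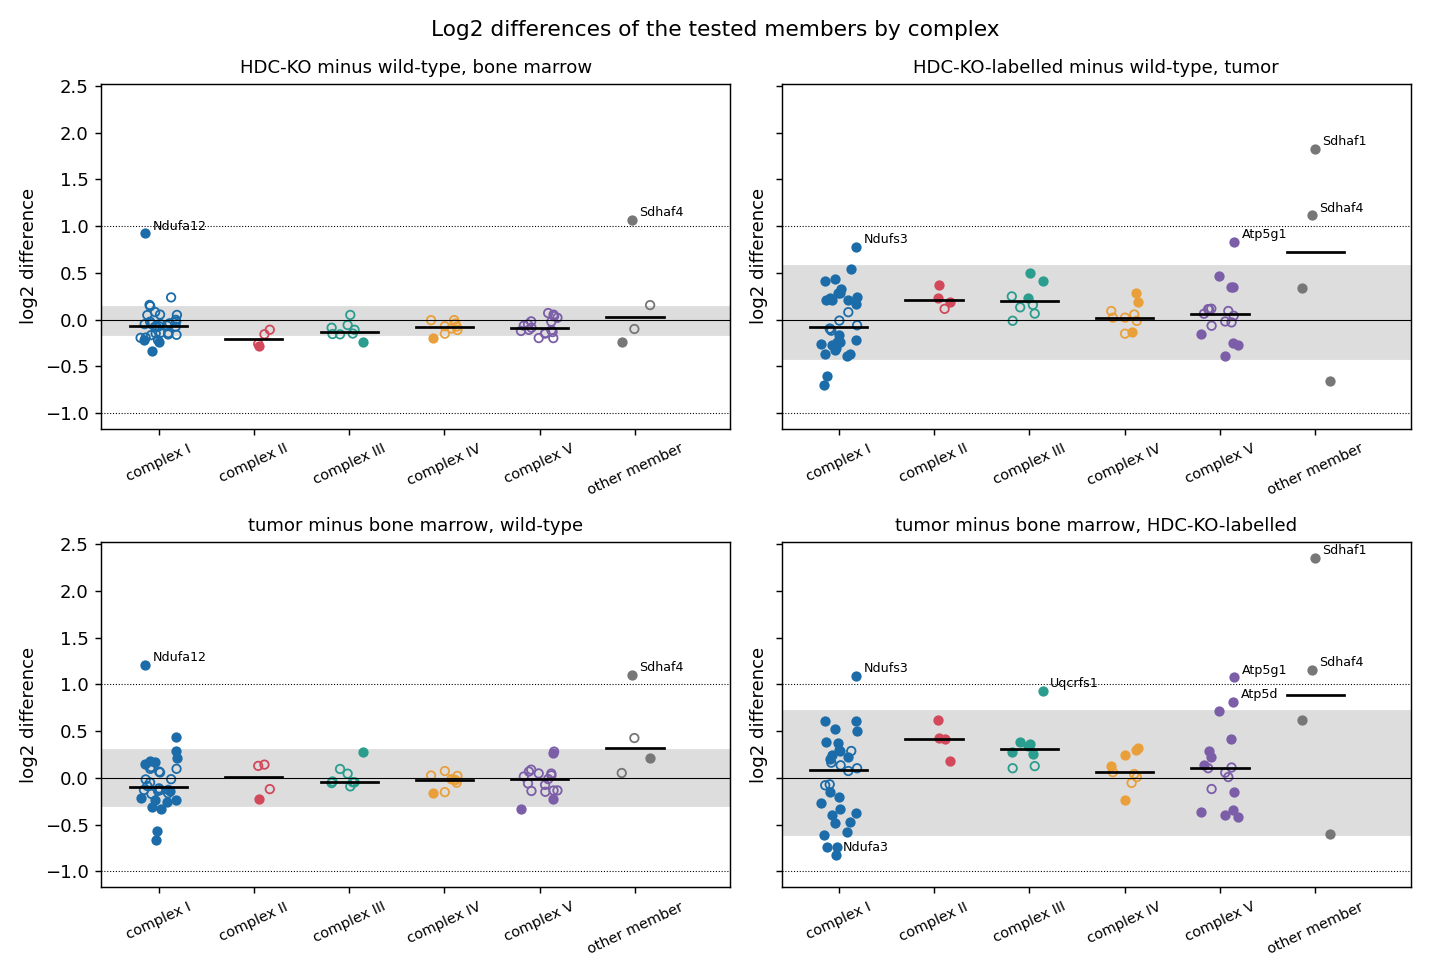
Log2 difference of each of the 74 tested genes in 4 comparisons (panels), by complex. Filled points passed an adjusted p under 0.05 (limma), open points did not, black bars are medians, the grey band holds the middle 50% of all tested genes and dotted lines mark a 2-fold difference. In bone marrow most points are open and lie just under 0, and in the comparisons with the pool labelled HDC-KO tumor complex I has filled points on both sides of 0.

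In tumor, the pool labelled HDC-KO was compared with the wild-type pool. Here 25 of the 70 subunits rose, 18 fell and 27 did not pass (adjusted p under 0.05, limma), against 72.8% of all tested genes that passed, 38.4% higher and 34.4% lower. On the probe sets used, no subunit reached 2-fold, against 26% of all tested genes. Of the 86 genes 2 did, both assembly factors of complex II. The median difference of the subunits was 0.07, against 0.03 over all tested genes. In complex I 13 of 32 rose and 13 fell. In complexes II and III 3 of 4 and 3 of 8 rose and none fell. For Sdhc the probe set used gave 0.23 and its other detected probe set -0.39, so its direction is not settled. In complex IV 2 of 9 rose and 1 fell, and in complex V 4 of 17 rose and 4 fell. Epithelial and macrophage marker levels were higher, and primary granule and cell cycle gene levels lower, in the pool labelled HDC-KO tumor. Of the 7 sort and granulocyte markers 1 rose and 3 fell. Of the 4 B and T cell markers tested 3 rose and 1 fell. The 2 erythroid markers tested rose, and of the 2 muscle and fat markers tested 1 rose and 1 fell. Wild-type tumor lay under log2 5 for 3 of the 6 B and T cell, 3 of the 4 erythroid and 6 of the 7 muscle and fat markers. The part of all these markers in the result was not tested.

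Within complex I the subunits were set apart by role. The core subunits carry the flavin and iron-sulfur clusters or lie at the ubiquinone site and are conserved from bacteria, and the accessory subunits surround them. Of the 6 core subunits tested, 4 rose and none fell. Of the 26 accessory subunits, 9 rose and 13 fell, with a median of -0.14 against 0.22 for the core. This grouping was made with the values in view and was not tested.

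The largest increases among subunits in tumor were Atp5g1 (0.83 ± 0.11) and Ndufs3 (0.78 ± 0.08), followed by Ndufa5 (0.54 ± 0.13), Uqcr11 (0.50 ± 0.06) and Atp5g2 (0.47 ± 0.06), with adjusted p from 0.00019 to 0.0093 (limma). Ndufs3, a core subunit of the arm of complex I that reaches into the matrix, read 9.07 and 9.24 in wild-type and 9.13 and 9.14 in HDC-KO bone marrow, 9.42 and 9.47 in wild-type tumor, and 10.16 and 10.30 in the pool labelled HDC-KO tumor. The last pool was the highest with no overlap, and the bone marrow pools overlapped. Atp5g1, a gene for the c subunit of the rotating ring of complex V, read 8.47 and 8.69, 8.69 and 8.54, 8.75 and 8.97, and 9.65 and 9.73 in the same order. Again the pool labelled HDC-KO tumor was the highest with no overlap. Atp5g2 and Atp5g3 encode the same c subunit; Atp5g2 rose (9.54 and 9.60 to 9.98 and 10.11), and Atp5g3 differed by 0.12 ± 0.05 and did not pass.

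The largest decreases were Ndufv3 (-0.70 ± 0.05), Ndufb7 (-0.61 ± 0.05), Atp5j (-0.39 ± 0.06) and Ndufs4 (-0.39 ± 0.07), with adjusted p from 4.3e-05 to 0.0032 (limma). Ndufv3, an accessory subunit beside the site of NADH oxidation, read 12.54 and 12.56 in wild-type and 12.34 and 12.31 in HDC-KO bone marrow, 12.39 and 12.45 in wild-type tumor, and 11.70 and 11.74 in the pool labelled HDC-KO tumor. Ndufb7, an accessory subunit of the membrane arm, read 12.04 and 12.01, 12.08 and 12.07, 11.91 and 11.97, and 11.31 and 11.35 in the same order. For both genes the pool labelled HDC-KO tumor was the lowest with no overlap. The other detected probe set of Ndufb7 gave -0.83 in this comparison. Ndufa12 fell by 0.37 ± 0.06 (adjusted p = 0.0022, limma), opposite in sign to bone marrow. Its unmarked probe set read 8.63 and 8.47 in wild-type tumor and 7.22 and 7.49 in the pool labelled HDC-KO tumor. That probe set gave a log2 difference of -1.20, so the size of the decrease depends on the probe set.

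Of the 10 subunits that the naming rule takes as the core of their complexes, Ndufv1 (0.25 ± 0.06), Sdha (0.37 ± 0.07), Uqcrfs1 (0.41 ± 0.06), Cox4i1 (0.19 ± 0.05) and Atp5a1 (0.34 ± 0.05) passed with higher values in the tumor pool with the HDC-KO label (adjusted p from 0.00083 to 0.016, limma). Ndufs1 (-0.06), Sdhb (0.11), Uqcrc1 (-0.01), Cox5a (-0.15) and Atp5b (0.11) did not pass. Atp5a1 and Atp5b encode the alpha and beta subunits that form the catalytic head of the ATP synthase together.

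**Figure D4:**
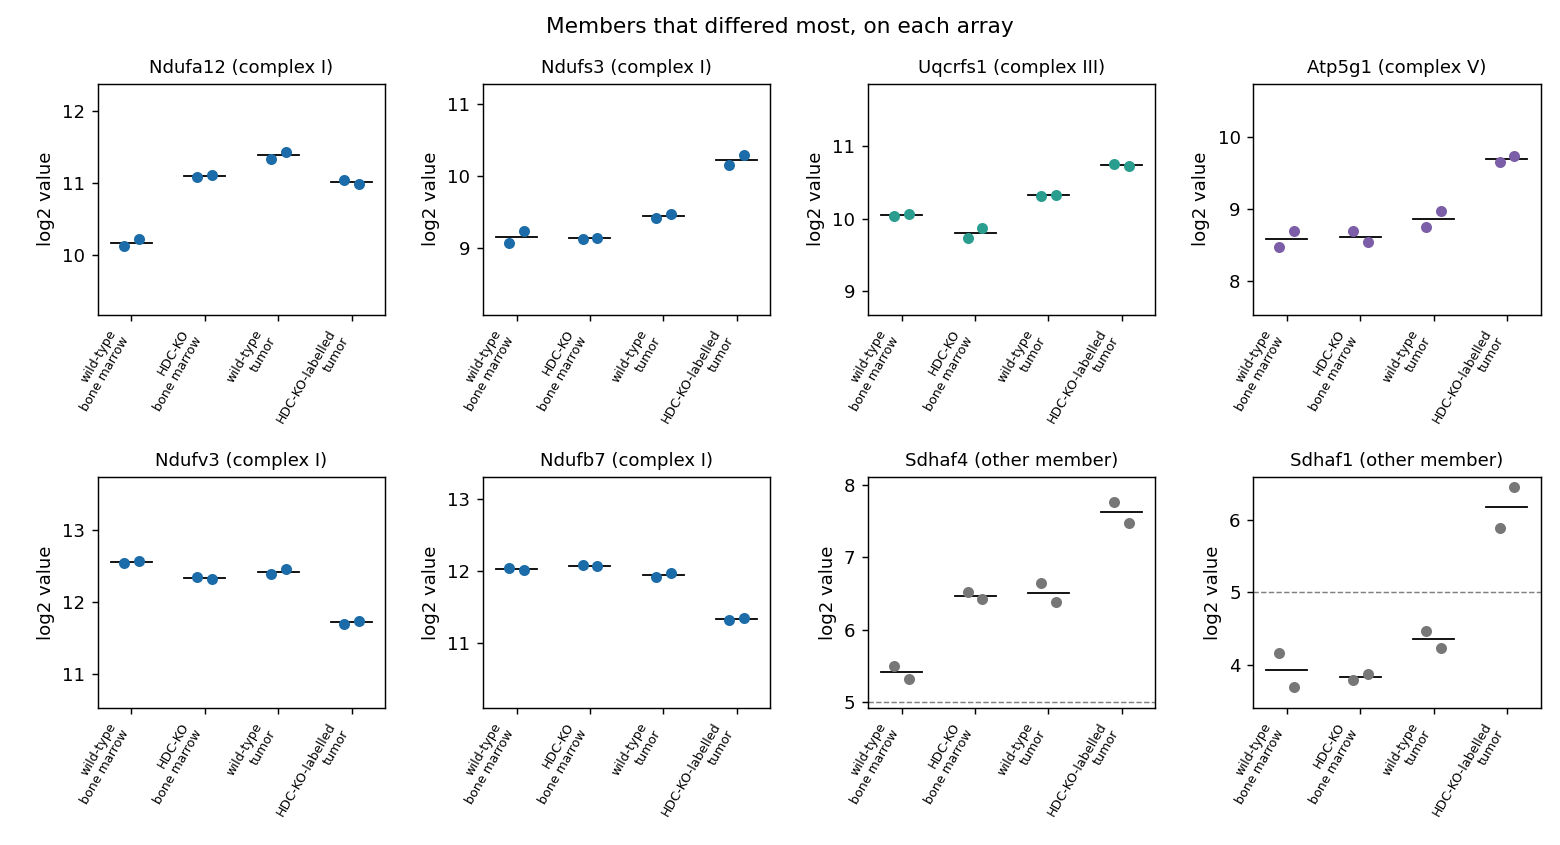
Log2 value on each technical array (points) and pool mean (bars) of 8 genes over the 4 pools, each panel with its own y axis and a dashed line at log2 5 where it is in range. Ndufs3, Uqcrfs1, Atp5g1, Sdhaf4 and Sdhaf1 are highest in the pool labelled HDC-KO tumor, Ndufv3 and Ndufb7 are lowest there, and Ndufa12 is lowest in wild-type bone marrow.

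Between tissues of wild-type mice, tumor was compared with bone marrow. Of the 70 subunits 9 rose, 14 fell and 47 did not pass (adjusted p under 0.05, limma), against 56.5% of all tested genes that passed, 27% higher and 29.4% lower. On the probe sets used, Ndufa12 was the only subunit at 2-fold or more (1.21 ± 0.06, adjusted p = 1.9e-05, limma), against 16.4% of all tested genes. Of the other genes of the 86 Sdhaf4 was called. The unmarked probe set of Ndufa12 read 4.54 and 4.47 in wild-type bone marrow and 8.63 and 8.47 in wild-type tumor. The median of the subunits was -0.04, against -0.03 over all tested genes.

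In this comparison 7 of 32 complex I genes rose and 9 fell, against 27% of all tested genes higher and 29.4% lower. The 9 that fell were all accessory subunits, a grouping made with the values in view and not tested. Ndufa3, an accessory subunit of the membrane arm, had the largest decrease (-0.67 ± 0.07, adjusted p = 0.00045, limma). It read 12.45 and 12.45 in wild-type and 12.32 and 12.28 in HDC-KO bone marrow, 11.78 and 11.78 in wild-type tumor, and 11.39 and 11.58 in the pool labelled HDC-KO tumor, so both tumor pools lay under both bone marrow pools. Its other detected probe set gave -0.70. Ndufb3 showed the same order of tissues, at 10.72 and 10.75, 10.67 and 10.64, 10.19 and 10.13, and 9.93 and 9.91 (wild-type tumor minus bone marrow -0.57 ± 0.05, adjusted p = 0.00018). Ndufa7 (-0.34), Atp5h (-0.34) and Ndufb10 (-0.31) were the next to fall. Ndufa10 (0.44 ± 0.05), Ndufs3 (0.29 ± 0.08) and Uqcrfs1 (0.28 ± 0.06) rose. The epithelial and macrophage markers were higher in tumor here too, and all 7 primary granule genes and 11 of the 13 cell cycle genes fell. Of the 7 sort and granulocyte markers 4 fell and none rose. Of the 4 B and T cell markers tested 3 rose, and the 2 erythroid markers tested rose. Wild-type bone marrow lay under log2 5 for 4 of the 6 B and T cell and 3 of the 4 erythroid markers. The part of all these markers in the differences was not tested. The number that passed fell when any array of these pools was left out, to between 8 and 12 of the 74 tested genes, and to 16 without either HDC-KO bone marrow array, against 25 with all arrays.

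The pool labelled HDC-KO tumor was next compared with HDC-KO bone marrow. This comparison shares a pool with each of the genotype comparisons, so the values are not independent of those above. Of the 70 subunits 33 rose, 19 fell and 18 did not pass (adjusted p under 0.05, limma), against 80.7% of all tested genes that passed, 39.5% higher and 41.2% lower. At 2-fold or more Ndufs3 (1.09 ± 0.08, adjusted p = 2.5e-05) and Atp5g1 (1.08 ± 0.11, adjusted p = 0.00013) rose and none fell, against 36.5% of all tested genes called. With Sdhaf1 and Sdhaf4, 4 of the 86 genes were called. The Atp5g1 call was lost, at 0.49, when its probe sets were averaged, since its other probe set lay under log2 5 on every array. The median of the subunits was 0.13, against -0.02 over all tested genes. The median log2 difference of the markers was 8.12 for the 12 of epithelium, 5.11 for the 9 of macrophages, -4.69 for the 7 primary granule genes and -3.01 for the 13 cell cycle genes, and 4.67 for the 2 erythroid markers tested. HDC-KO bone marrow did not reach log2 5 for 11 epithelial, 4 macrophage and all 4 erythroid markers. The pool labelled HDC-KO tumor did not reach it for 2 primary granule and 3 cell cycle genes. These medians therefore draw on values too dim to measure and give a direction, not a measured size. Of the 7 sort and granulocyte markers 1 rose and 4 fell, 3 of them at 2-fold or more. Of the 4 B and T cell markers tested 3 rose and 1 fell, and of the 2 muscle and fat markers tested 1 rose and 1 fell. HDC-KO bone marrow lay under log2 5 for 3 of the 6 B and T cell and 6 of the 7 muscle and fat markers. The part of the markers in the result was not tested.

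The counts by complex stand against 39.5% of all tested genes higher and 41.2% lower between these pools. All 4 subunits of complex II rose: Sdhc by 0.62 ± 0.08, Sdha by 0.43 ± 0.07, Sdhb by 0.41 ± 0.05 and Sdhd by 0.18 ± 0.07. Sdha and Sdhb form the matrix-facing catalytic part, and Sdhc and Sdhd anchor it in the membrane. Sdha read 9.86 and 9.68 in HDC-KO bone marrow and 10.19 and 10.20 in the pool labelled HDC-KO tumor, and the pools did not overlap. For Sdhc the other detected probe set gave -0.12, so its direction is not settled. In complex III 6 of 8 rose and none fell, with a median of 0.31. Uqcrfs1 rose most there (0.93 ± 0.06, adjusted p = 1.7e-05), from 9.73 and 9.88 in HDC-KO bone marrow to 10.75 and 10.72, with 10.32 and 10.33 in wild-type tumor. The core proteins Uqcrc1 (0.10) and Uqcrc2 (0.13) did not pass, and the other detected probe set of Uqcrb gave the opposite sign (-0.21).

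In complex IV 4 of 9 rose, namely Cox4i1 (0.32 ± 0.05), Cox8a (0.30 ± 0.07), Cox5b (0.24 ± 0.05) and Cox6b1 (0.12 ± 0.05), and Cox5a fell (-0.23 ± 0.07). The other detected probe sets of Cox5a gave -0.097 and -0.0016, so its decrease depends on the probe set. In complex V 7 of 17 rose and 5 fell, against 39.5% of all tested genes higher and 41.2% lower. All 3 genes of the c subunit were among those that rose, Atp5g1 as above, Atp5g2 by 0.72 ± 0.06 and Atp5g3 by 0.22 ± 0.05. Atp5d, the delta subunit of the central stalk, rose by 0.81 ± 0.07, reading 10.56 and 10.56 in HDC-KO bone marrow, 11.03 and 11.01 in wild-type tumor and 11.28 and 11.47 in the pool labelled HDC-KO tumor. Of the genes of the stalk that holds the catalytic head still, Atp5pb (-0.42 ± 0.06), Atp5j (-0.39 ± 0.06) and Atp5h (-0.36 ± 0.05) fell, and Atp5o did not pass (0.11 ± 0.09).

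In complex I 12 of 32 rose and 13 fell, near the 39.5% of all tested genes higher and 41.2% lower. The 13 that fell were all accessory subunits, which had 7 that rose and a median of -0.11 over 26. The grouping into core and accessory was made with the values in view and was not tested. Of the core subunits 5 of 6 rose, with a median of 0.34: Ndufs3, Ndufv1 (0.51 ± 0.06), Ndufs8 (0.38 ± 0.06), Ndufv2 (0.30 ± 0.05) and Ndufs7 (0.21 ± 0.07). Ndufs1 did not pass (0.10 ± 0.07). The largest decreases were Ndufa3 (-0.82 ± 0.07), Ndufb7 (-0.74 ± 0.05), Ndufb3 (-0.73 ± 0.05) and Ndufv3 (-0.61 ± 0.05), with adjusted p from 1.7e-05 to 6.2e-05 (limma). Among the accessory subunits that rose were Ndufa10 (0.61 ± 0.05), Ndufb5 (0.60 ± 0.05) and Ndufa6 (0.52 ± 0.05). Ndufa12 gave -0.08 on the probe set used and 2.85 on its unmarked one, which lay under log2 5 in HDC-KO bone marrow. Over all complexes, 40 of the 44 other probe sets that reached log2 5 on 2 or more of the 8 arrays, for genes that passed, had the sign of the probe set used.

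The log2 difference between the tumor pools, minus that between the bone marrow pools, was tested directly. It is called the difference of genotype effects, although the pool labelled HDC-KO tumor did not show the loss of Hdc. This difference was positive for 27 of the 70 subunits, negative for 9 and did not pass for 34 (adjusted p under 0.05, limma). Of all tested genes 65.8% passed, 34.8% positive and 31% negative. At 2-fold or more, against 28.5% of all tested genes, there were 2 of the 86 genes, the subunit Ndufa12 (-1.29 ± 0.09, adjusted p = 6e-05) and the assembly factor Sdhaf1, which lay under log2 5 in 3 of the 4 pools. All 4 subunits of complex II and 5 of 8 of complex III were positive, Sdha by 0.65 ± 0.10 and Uqcrfs1 by 0.65 ± 0.09. Both genes had fallen in HDC-KO bone marrow. For Sdhc the probe set used gave 0.49 and the other detected probe set -0.41, so its sign depends on the probe set. In complex I 11 were positive and 7 negative. The median of the subunits was 0.17, against 0.05 over all tested genes.

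Among the genes that the prefixes caught beside the subunits, Sdhaf4 and Sdhaf1 held the 2-fold calls. Sdhaf4, which helps to join the flavoprotein of complex II to its partner, read 5.50 and 5.32 in wild-type and 6.52 and 6.42 in HDC-KO bone marrow, 6.64 and 6.38 in wild-type tumor, and 7.77 and 7.48 in the pool labelled HDC-KO tumor. Wild-type bone marrow was lowest and the pool labelled HDC-KO tumor highest, and the pools between overlapped. Its log2 differences were 1.06 ± 0.13 in bone marrow, 1.12 ± 0.13 in tumor, 1.10 ± 0.13 between wild-type tissues and 1.15 ± 0.13 between HDC-KO-labelled tissues (adjusted p from 0.00025 to 0.0032, limma). These lie close to the 2-fold threshold, and leaving out an array took them to 0.98 in bone marrow (without wild-type bone marrow array 2), to 0.97 between wild-type tissues (without wild-type tumor array 1), and to 0.98 and 0.97 in tumor (without wild-type tumor array 2 or array 1 of the pool labelled HDC-KO tumor). Sdhaf1, needed for the iron-sulfur subunit of complex II, read 4.15 and 3.69, 3.78 and 3.87, and 4.46 and 4.23 in the first 3 pools and 5.90 and 6.46 in the pool labelled HDC-KO tumor. Only that pool lay above log2 5, and it was at least 2.26-fold higher than each other pool, with log2 5 as the floor for the dim pools. It entered the test only through that pool, so its calls give no more than this bound. Sdhaf2, which inserts FAD into the flavoprotein, fell in tumor (-0.66 ± 0.07, adjusted p = 0.00021), but its other detected probe set gave 0.30. Cox7a2l fell in HDC-KO bone marrow (-0.24 ± 0.07, adjusted p = 0.049) and was higher in the tumor pool with the HDC-KO label than in HDC-KO bone marrow (0.62 ± 0.07, adjusted p = 0.00015).

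Of the 86 genes 12 were not tested because fewer than 2 arrays reached log2 5. Among them are the tissue-restricted isoforms of complex IV. Cox4i2, the isoform of lung, lay at 2.68 to 2.81, and the muscle isoforms Cox6a2, Cox7a1 and Cox8b at 2.50 to 3.06, 2.32 to 3.94 and 2.50 to 2.98. Cox6b2, the testis isoform, lay at 2.88 to 4.80, and Ndufa4l2 at 2.16 to 2.37. The isoforms found in most tissues were tested: Cox4i1 at 12.60 to 12.97, Cox6a1 at 13.82 to 13.90, Cox6b1 at 12.99 to 13.13, Cox7a2 at 12.26 to 12.43 and Cox8a at 10.25 to 10.65. Over the 5 comparisons the widest difference among these was 0.33, for Cox8a in the difference of genotype effects. Cox7c, Ndufb1 and Ndufb4 are subunits of most tissues and still lay under log2 5, at no more than 4.61, 4.88 and 2.24. Such a value is that of the probe set and does not show that the transcript was absent. The remaining untested genes were Cox7b2, Cox8c and Sdhaf3.

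Of 16 tested genes of the citric acid cycle, which feeds complexes I and II, 9 rose and 1 fell from HDC-KO bone marrow to the pool labelled HDC-KO tumor, 4 of them at 2-fold or more. The counts of this and the next lists stand against 39.5% of all tested genes higher, 41.2% lower and 36.5% at 2-fold or more between these pools. Suclg2, a subunit of succinyl-CoA synthetase, read 4.90 and 5.56 in HDC-KO bone marrow, 6.75 and 6.68 in wild-type tumor and 8.92 and 9.01 in the pool labelled HDC-KO tumor, a log2 difference of 3.73 ± 0.20 between the HDC-KO-labelled pools (adjusted p = 5.7e-06, limma). Fh1, fumarase, rose by 1.39 ± 0.08 there, and Idh2 and Idh3b by 1.05 ± 0.13 and 1.04 ± 0.05. Of 11 genes of electron carriers and ubiquinone synthesis, 7 rose and 3 fell. Coq2, which attaches the side chain of ubiquinone, rose by 2.32 ± 0.13, and Coq5 by 1.22 ± 0.13, while Coq4 fell from 6.12 and 5.96 to 4.61 and 4.70.

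Of 26 assembly factors 6 rose and 10 fell between the same pools. Nubpl and Ndufaf3, which act on complex I, fell by 1.18 ± 0.12 and 1.08 ± 0.11, and Bcs1l, which inserts the Rieske protein into complex III, fell by 1.20 ± 0.09. Uqcc2 rose by 1.18 ± 0.08, and Ndufaf4 from 4.87 and 4.66 to 5.72 and 6.40. Of 16 regulators of mitochondrial biogenesis 6 rose and 9 fell. Ppargc1b, the coactivator PGC-1beta, read 3.10 and 3.56 in HDC-KO bone marrow, 4.21 and 4.21 in wild-type tumor and 6.95 and 6.90 in the pool labelled HDC-KO tumor, where alone it lay above log2 5. Polrmt, the mitochondrial RNA polymerase, likewise lay above log2 5 only there, at 6.27 and 6.30. Ppargc1b and Polrmt entered the test only through that pool, so their results give no measured size. Gabpb1, a subunit of the factor GABP, fell by 1.68 ± 0.12 and Polg, the mitochondrial DNA polymerase, by 1.59 ± 0.10. Of 11 mitochondrial carriers and antioxidant genes 6 rose and 4 fell, with the ADP/ATP carrier Slc25a4 up by 2.64 ± 0.06 and the superoxide dismutase Sod2 by 1.84 ± 0.09. Of the chain's subunits encoded in mitochondrial DNA only ND5, of complex I, had a probe set of its own. It read 11.77 and 11.63 in wild-type and 11.35 and 11.44 in HDC-KO bone marrow, 12.53 and 12.60 in wild-type tumor, and 13.44 and 13.55 in the pool labelled HDC-KO tumor. It rose by 2.10 ± 0.08 between the HDC-KO-labelled pools (adjusted p = 1.1e-06, limma), and no 2 pools overlapped.

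In the other comparisons the same lists passed as follows (adjusted p under 0.05, limma). In bone marrow 2 of the 26 assembly factors rose and 1 fell, none of the 11 carrier and ubiquinone genes passed, 2 of the 16 citric acid cycle genes fell, 1 of the 16 regulators rose and 1 of the 11 mitochondrial carrier and antioxidant genes rose. Between the tumor pools the numbers that rose (labelled HDC-KO over wild-type) and fell were 5 and 9 assembly factors, 6 and 2 carrier and ubiquinone genes, 8 and 3 citric acid cycle genes, 6 and 5 regulators, and 5 and 4 mitochondrial carrier and antioxidant genes. Between the wild-type tissues they were 5 and 8, 3 and 3, 5 and 2, 2 and 7, and 5 and 1 in the same order. The shares of all tested genes higher and lower were 10.3% and 10.9% in bone marrow, 38.4% and 34.4% between the tumor pools, and 27% and 29.4% between the wild-type tissues, so nothing particular to these lists is read from the counts.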

How the data were processed

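RNA of the 8 arrays was labelled as biotinylated cRNA and hybridised to Affymetrix arrays of 45101 probe sets. The authors deposited log2 values made with GCRMA, per the submitters' processing notes; that the scale is log2 follows from the range of the values. GCRMA corrects background by probe sequence and equalises arrays, so a shift of all transcripts together would not be seen. The software version was not given in the sources used here. The small number of arrays, 2 per pool, limits the precision.

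Arrays were placed in groups by title. Gene names came from the platform annotation (of the probe sets, 34958 had 1 gene, 932 several and 9211 none), and 10 probe sets shared by a listed gene and another gene were left out. Genes that reached log2 5 on 2 or more arrays were fitted in R 4.3.3 by lmFit and eBayes of limma 3.58.1 (1 coefficient per group, 4 residual and 2.14 prior degrees of freedom), and p-values were adjusted by Benjamini-Hochberg over all 8174 genes. "Rose" and "fell" mean an adjusted p under 0.05, and a 2-fold call also needs an absolute log2 difference of at least 1. Values after ± are the standard error of the difference.

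The genes and lists were chosen with earlier results of these data known. Genes were named by rule: those called 2-fold, the 5 largest and 5 smallest differences per comparison, 10 core subunits and the isoform pairs, and up to 3 called genes of each other list. Genes given beside these were chosen after their values were seen. Alternatives tried were other filters, normalization, probe set choice, variance model, a replicate block and leaving out each array. Data simulated for HDC-KO-labelled against wild-type tumor over 8174 genes were used to test the fit: 100 of 100 genes changed by log2 1.5 were called 2-fold, and 48 of 100 changed by log2 0.3 passed the adjusted p, with 12 false calls. Promoters were searched in Python 3.11.15 and figures drawn with matplotlib 3.10.9. Same-numbered arrays did not deviate together (correlations from -0.015 to 0.058 over 6 pairs of groups), so array numbers were not treated as pairs.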

Additional observations from a re-analysis of the deposited data

Results flagged for a closer look

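The tumor comparison differed from the bone marrow comparison, by the interaction term of limma, at 2-fold or more for Ndufa12 and Sdhaf1. Both compare single pools, and the pool labelled HDC-KO tumor did not show the loss of Hdc that its label states. For Ndufa12 the difference of genotype effects was -1.29, with an increase of 0.92 in HDC-KO bone marrow and a decrease of 0.37 in the tumor pool labelled HDC-KO. Its unmarked probe set gave -0.0030 in bone marrow, where it lay under log2 5, and -1.20 in tumor. For Sdhaf1 the fitted value was 1.93, which is no measured size: the gene lay under log2 5 in every pool but the one labelled HDC-KO tumor and was tested only because of that pool. The cause of either was not tested.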

How the results depend on the processing

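Each value compares single pools of sorted cells, so no setting measures the spread between mice. Counts are of the listed genes that each setting tested, 74 in the main analysis, 86 without a filter, 73 at log2 7, 70 at log2 9 or without the non-subunits, 71 with averaged probe sets and 68 without _x_at and _s_at probe sets. Leaving out 1 array in turn gave 2 to 8 genes passing the adjusted p in bone marrow and 8 to 25 between wild-type tissues. It gave 0 to 1 2-fold calls in bone marrow and 1 to 2 in tumor and between wild-type tissues. The medians ran from -0.050 to -0.0040 between wild-type tissues, 0.14 to 0.16 between HDC-KO-labelled tissues and 0.14 to 0.20 for the difference of genotype effects. Without a filter on low values, 2 genes passed the adjusted p in bone marrow (9 in the main analysis) and 13 between wild-type tissues (25), and the median between HDC-KO-labelled tissues was 0.12 (main 0.14). A filter at log2 7 left 1 gene called 2-fold in tumor and 1 in the difference of genotype effects. A filter at log2 9, chosen after seeing the data, and leaving out the non-subunits both gave 0, 0, 1, 2 and 1 2-fold calls in bone marrow, in tumor, between wild-type tissues, between HDC-KO-labelled tissues and in the difference of genotype effects; at log2 9, 19 genes passed in bone marrow. Of the genes at that filter 27.1%, 71.4%, 45.7%, 77.1% and 64.3% passed in the 5 comparisons, against 33.3%, 79.4%, 63.9%, 85.7% and 74.5% of all genes there. Quantile normalization and leaving out _x_at and _s_at probe sets gave medians of 0.16 and 0.17 between HDC-KO-labelled tissues. Centring arrays on their median gave -0.10 in bone marrow, -0.0603 between wild-type and 0.10 between HDC-KO-labelled tissues. Averaging probe sets gave 2 2-fold calls in bone marrow and medians of -0.094 there, 0.046 in tumor and 0.10 between HDC-KO-labelled tissues. A trended, robust variance model passed 27 genes in bone marrow and 38 between wild-type tissues. With array number as a replicate block, which the pairing check did not bear out, 5 passed in bone marrow. Without _x_at and _s_at probe sets Ndufa12 stood at -0.0030 in bone marrow, on a probe set under log2 5 in both marrow pools, so no difference was measured. Over all alternatives, 251 values that answer a comparison stayed within their limits and 46 did not; of the differences of named genes 2408 kept direction and side of the threshold, 150 lost and 45 gained their call and 1 changed sign, that of Ndufa12. The cause of these changes was not tested.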
